A study of Brachypodium distachyon with 4 samples.

Results

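FT1, FT2 and FTL9 are FLOWERING LOCUS T-like (FT-like) genes of the temperate grass Brachypodium distachyon, which stands in for wheat and barley in many laboratories. They were taken by locus identifier, with no condition on their expression, as BRADI_1g48830v3 (FT1), BRADI_2g07070v3 (FT2) and BRADI_2g49795v3 (FTL9), which are 3 of the 35125 loci in the count table. Their names are published assignments that the table does not state and that no reference table used here could check. RNA was sequenced from leaves of the inbred line Bd21-3, the wild type, and of the mutant jmj1-1, with 2 libraries of each genotype. Plants of both genotypes were on day 17 and at the stage of leaf 4, grown with 20 h of light and 4 h of darkness and collected 10 h after lights on. By its name, jmj1-1 is an allele of a gene for a JmjC-domain protein, a family that includes histone demethylases. The lesion, the identifier of JMJ1 and the number of plants behind a library are stated in none of the sources used here. The labels of genotype and of tissue could therefore not be checked against JMJ1 or leaf marker genes.

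FT-like proteins belong to the phosphatidylethanolamine-binding protein family. In flowering plants FT protein is made in the leaf in inductive day length and moves through the phloem to the shoot apex, where it joins a bZIP factor of the FD type and 14-3-3 proteins and switches on genes of floral identity; it is the molecule long called florigen. FT1 is the Brachypodium counterpart of VRN3 in wheat and barley and of Hd3a in rice. In wheat and barley VRN3 acts in a positive loop with the MADS-box gene VRN1, while VRN2 represses VRN3 before winter cold. FT2 is a close relative of FT1 that also promotes reproductive development in wheat. FTL9 is a further paralogue, with a part in the flowering response of Brachypodium to short days in place of cold.

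Depth ranged from 13825916 to 16520046 reads per library, so that 1 read was worth 0.0613 to 0.0708 CPM (the usual count per library size, here after TMM scaling, which takes most genes as equal between libraries). In edgeR's quasi-likelihood test 2978 of 21456 tested genes differed between the genotypes at an adjusted p of 0.05 or less, and 1663 of these were lower in jmj1-1. FT1 and FT2 had enough reads for this test, and FTL9 did not pass the filter on low counts. The labels do not tie the replicates to separate plants, so the spread between libraries behind the p-values may be technical. For each gene the test also draws on the spread of the other tested genes.

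FT1 fell to near silence in jmj1-1. The Bd21-3 libraries held 163 and 150 of its reads and each jmj1-1 library held 2, which is 10.1 and 9.48 CPM against 0.123 and 0.142 CPM. Both wild-type libraries were high, both mutant libraries were near 0, and the genotypes did not overlap. At the wild-type level the jmj1-1 libraries would have held 159.4 and 138.1 reads of FT1. The log2 change was -6.13 (SE 0.37, n = 2 libraries per genotype, adjusted p = 8.36e-21, edgeR's quasi-likelihood test). DESeq2, another tool, gave -6.22 with a larger SE of 0.77, so the precision depends on the method. In bulk leaf RNA, fewer cells that express a gene and less of its RNA per cell cannot be told apart.

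FT2 fell as well, from a level nearer to the limit of detection. Each Bd21-3 library held 18 reads, and the jmj1-1 libraries held 1 read and 0 reads, where 18.3 and 15.9 would have been counted at the wild-type level. In CPM these were 1.11 and 1.14 in Bd21-3 and 0.0613 and 0 in jmj1-1. The wild-type libraries held equal numbers of reads, and neither mutant library reached them. The count of 0 in jmj1-1 replicate 2 allows up to 0.212 CPM, taking 3 reads as the limit, so FT2 was at least 5.29-fold lower in that library than in Bd21-3. The log2 change over all 4 libraries was -4.79 (SE 0.85, adjusted p = 1.80e-05, edgeR's quasi-likelihood test). DESeq2 gave -5.10 with a larger SE of 1.61. The edgeR change was -4.03 without jmj1-1 replicate 2. Leaving out jmj1-1 replicate 1 takes away the single mutant read of FT2, so the fitted value there is no bound.

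FTL9 did not show the pattern of FT1 and FT2. Its reads were 6 and 2 in Bd21-3 and 7 and 5 in jmj1-1, or 0.371 and 0.126 CPM against 0.429 and 0.354 CPM. The genotypes overlapped, since Bd21-3 replicate 1 lay between the mutant libraries, and the lowest library was Bd21-3 replicate 2. Summed over libraries, 8 reads in Bd21-3 and 12 in jmj1-1 gave a jmj1-1 to Bd21-3 ratio of 1.58 after scaling, with an exact 95% Clopper-Pearson interval of 0.593 to 4.45. This interval leaves room for a fall by a small factor or a rise of several-fold. Fitted without the expression filter, its log2 change was 0.64 (SE 0.69, adjusted p = 0.66, edgeR's quasi-likelihood test), and it ranged from 0.08 without Bd21-3 replicate 2 to 1.58 without Bd21-3 replicate 1. In that fit without a filter, 6.29% of 28418 loci were called. Of 2998 loci with total reads within 2-fold of those of FTL9, 67 were called, 2.23% of them, so calls are rare at this depth.

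**Figure D1:**
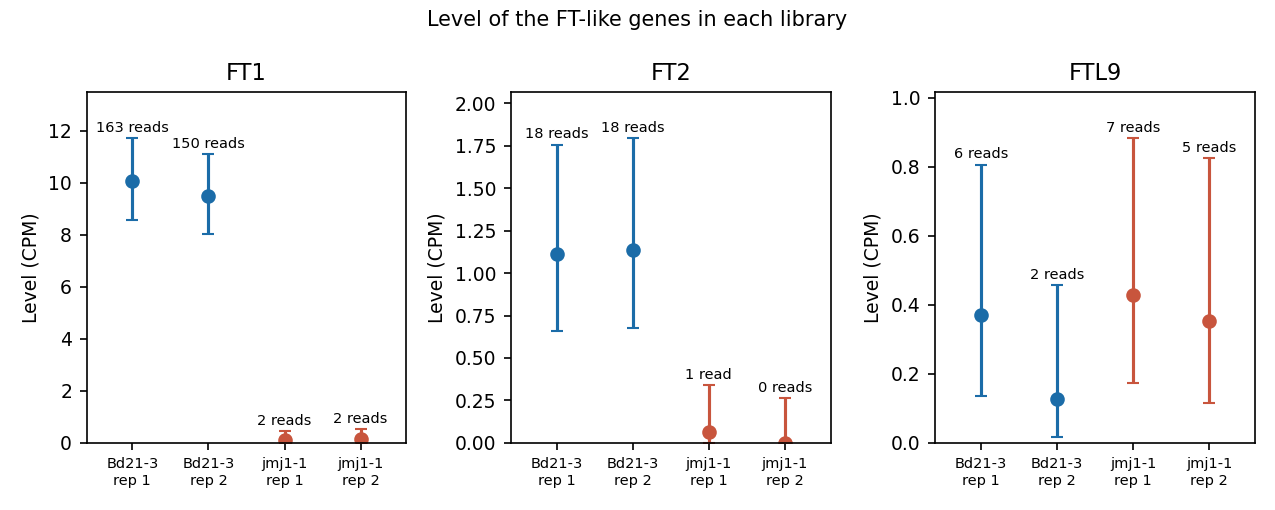
Level of FT1, FT2 and FTL9 in CPM (vertical axes, linear and set for each gene) in each of the 4 libraries, with Bd21-3 in blue and jmj1-1 in red. Points are single libraries, bars are exact 95% Poisson intervals that cover counting error only, and the reads behind each point are printed. FT1 and FT2 are higher in both Bd21-3 libraries than in the jmj1-1 libraries, where they have 0 to 2 reads, whereas FTL9 has 2 to 7 reads throughout.

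The plot of levels by library shows how far counting error alone reaches. For FT1 the exact 95% Poisson interval of the lower Bd21-3 library began at 8.02 CPM, and that of the higher jmj1-1 library ended at 0.511 CPM. For FT2 the corresponding ends were 0.659 CPM and 0.342 CPM, still apart. For FTL9 the intervals of all 4 libraries shared the range from 0.173 to 0.457 CPM.

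The members were compared in how far they changed, as ratios of summed reads. The fall of each gene was scaled for library size, which cancels in the quotients between members. FT1 had 313 reads in Bd21-3 and 4 in jmj1-1, a fall of 74.4-fold after scaling (exact 95% interval 28.8 to 275). FT2 had 36 reads and 1 read, a fall of 34.2-fold (5.76 to 1389). The fall of FT1 was 2.17 times that of FT2, but the exact conditional 95% interval of this quotient ran from 0.0430 to 22.7, so the depth does not show whether they fell by unequal factors. FTL9 was set apart from both. The Bd21-3 to jmj1-1 ratio of FT1 was 117 times that of FTL9 (26.6 to 581), and that of FT2 was 54.0 times that of FTL9 (5.88 to 2333). These are 3 pairs, and their intervals cover counting error only.

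The quotient of FT1 to FT2 reads was similar in the Bd21-3 libraries, within wide intervals. FT1 had 9.06 reads for each read of FT2 in Bd21-3 replicate 1 (exact 95% interval 5.55 to 15.7) and 8.33 in Bd21-3 replicate 2 (5.10 to 14.4). Gene lengths are not in the table, so these quotients of reads are compared between libraries and say nothing of which gene had more RNA. Of the summed reads of FT1, FT2 and FTL9, FTL9 made up 6 of 187 and 2 of 170 in the Bd21-3 libraries, or 3.21% (Clopper-Pearson 95% interval 1.19 to 6.85%) and 1.18% (0.143 to 4.18%). In the jmj1-1 libraries it made up 7 of 10 and 5 of 7, or 70.0% (34.8 to 93.3%) and 71.4% (29.0 to 96.3%). The shares in the mutant lay above those in the wild type, with no overlap of intervals. This restates the fall of FT1 and FT2, whose summed reads were 349 in Bd21-3 and 5 in jmj1-1, and is no sign of a rise of FTL9, which had 8 and 12 reads.

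Against the whole table, the falls of FT1 and FT2 were among the steepest. By log2 change they ranked 3 and 9 among the falls of 21456 tested genes. By the p-value of edgeR's quasi-likelihood test, in either direction, they ranked 39 and 655. The log2 change of FT2 rests on 1 mutant read in all, so its rank of 9 is not well determined. Genes called in either direction made up 13.9% of those tested, genes called lower 7.75%, and genes called lower by 4-fold or more 0.168%, which is 36 genes, among them FT1 and FT2. Having both jmj1-1 libraries below both Bd21-3 libraries was common by comparison, at 25.3% of tested genes. FT1 lay in the middle range of leaf expression in Bd21-3, with 57.4% of tested genes at a higher CPM, and FT2 near the bottom, with 92.0% higher. Among 3240 tested genes within 2-fold of FT2 in Bd21-3, 1.51% were called lower and 16 were called lower by 4-fold or more (0.494%). Among 6530 genes within 2-fold of FT1, 3.81% were called lower and 10 were lower by 4-fold or more (0.153%). Tested against a fold of 1.5 in place of no change, FT1 and FT2 still passed, with adjusted p = 2.11e-18 and 3.53e-04 in edgeR's test for a minimum fold.

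**Figure D2:**
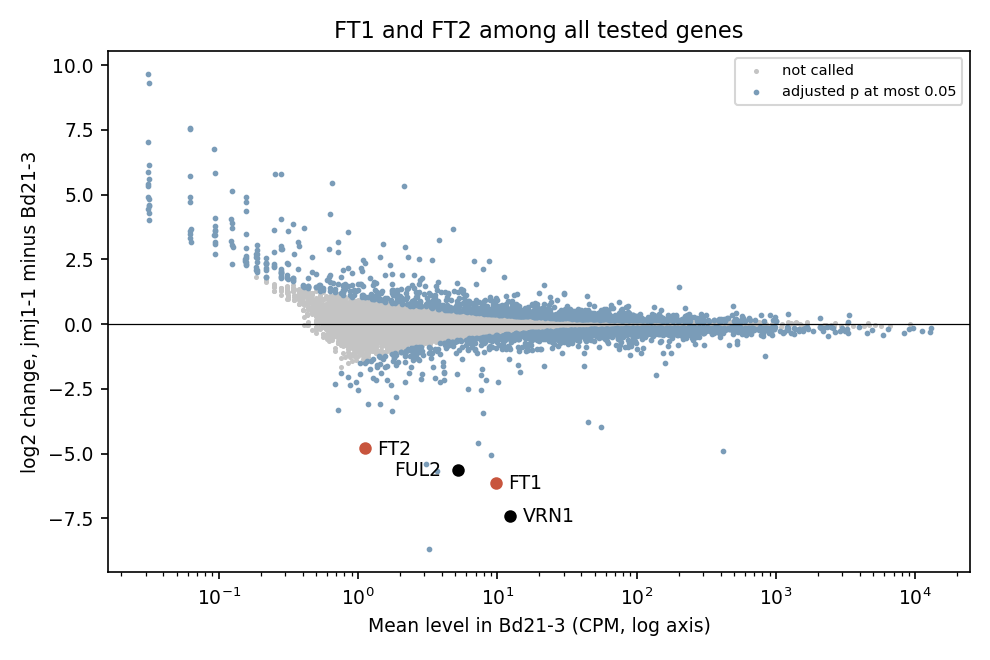
Log2 change from Bd21-3 to jmj1-1 (vertical axis) against the mean level in Bd21-3 in CPM (horizontal log axis) for the tested genes, in blue where the adjusted p was 0.05 or less and grey otherwise; 30 tested genes without a read in Bd21-3 cannot be drawn on this axis. FT1 and FT2 (red) and the MADS-box genes VRN1 and FUL2 (black) lie well below the bulk of genes of like level.

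In the pathway around the florigen genes, VRN1 and FUL2 fell by large factors, PPD1, LHY and GI changed by small ones, and the other tested genes did not pass the test. A list of 15 loci covered activators, repressors, photoreceptors and clock genes; 14 were in the table and 13 were tested, and 1 locus with a single read in all was too low. Of these 13, 4 fell (VRN1, FUL2, PPD1 and LHY), 1 rose (GI) and 8 did not pass. The names of the list loci, like those of FT1, FT2 and FTL9, could not be checked here. The median log2 change of the list was -0.13, beside 0.0033 over all tested genes, and its counts stand beside 7.75% of all tested genes called lower and 6.13% called higher. The list was chosen with earlier results of these data known, so this comparison is a description and no test of the list.

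VRN1 and FUL2, MADS-box genes of the FRUITFULL type that promote the floral transition, were the list members with falls of a size like that of FT1. The fitted fall was larger for VRN1 than for FT1 and smaller for FUL2. VRN1 had 204 and 192 reads in Bd21-3 and 1 in each jmj1-1 library, and FUL2 had 93 and 74 reads against 2 and 1. Their log2 changes were -7.39 (SE 0.39, adjusted p = 4.66e-24) and -5.62 (SE 0.48, adjusted p = 1.09e-14, edgeR's quasi-likelihood test), and neither gene overlapped between genotypes. The SEs from DESeq2 were larger, at 1.05 for VRN1 and 0.91 for FUL2. The other tested members of the list differed by at most 1.34-fold.

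PPD1, PHYC and PHYB differed by far smaller factors than FT1 itself, unlike VRN1 and FUL2. PPD1, a pseudo-response regulator that raises FT1 in long days, fell by 0.38 on the log2 scale (SE 0.064, adjusted p = 8.85e-06), from 62.5 and 60.9 CPM to 48.7 and 46.4 CPM. Its mutant libraries lay below its wild-type libraries by less than a factor of 2. PHYC, a phytochrome gene that Brachypodium needs for flowering in long days, had 117 and 123 CPM in Bd21-3 and 110 in each jmj1-1 library (log2 change -0.13, SE 0.051, adjusted p = 0.083). It passed without Bd21-3 replicate 1 (log2 change -0.17, adjusted p = 0.026), and its adjusted p ran from 0.026 to 0.44 over the alternatives. The phytochrome gene PHYB was at 59.1 and 61.5 CPM in Bd21-3 and 63.4 and 58.4 CPM in jmj1-1, and its genotypes overlapped.

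The repressor VRN2, a CCT-domain gene, had 39 and 41 reads in Bd21-3 and 52 and 40 in jmj1-1. In CPM these were 2.41 and 2.59 against 3.19 and 2.83, so the mutant libraries lay above the wild-type libraries. Separation the other way, with both mutant libraries below, held for 25.3% of tested genes. The jmj1-1 to Bd21-3 ratio of VRN2 was 1.21 with an exact 95% interval of 0.887 to 1.65. VRN2 did not pass the test (adjusted p = 0.59, edgeR's quasi-likelihood test). CONSTANS-like genes, related to the CONSTANS gene that activates FT in Arabidopsis, did not pass either. The one on chromosome 1 had 196 and 176 reads in Bd21-3 and 139 and 137 in jmj1-1 (log2 change -0.36, SE 0.14, adjusted p = 0.075). The one on chromosome 3 had 38 and 32 reads against 48 and 41 (log2 change 0.42, SE 0.27, adjusted p = 0.37). Their fitted changes were of opposite sign.

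**Figure D3:**
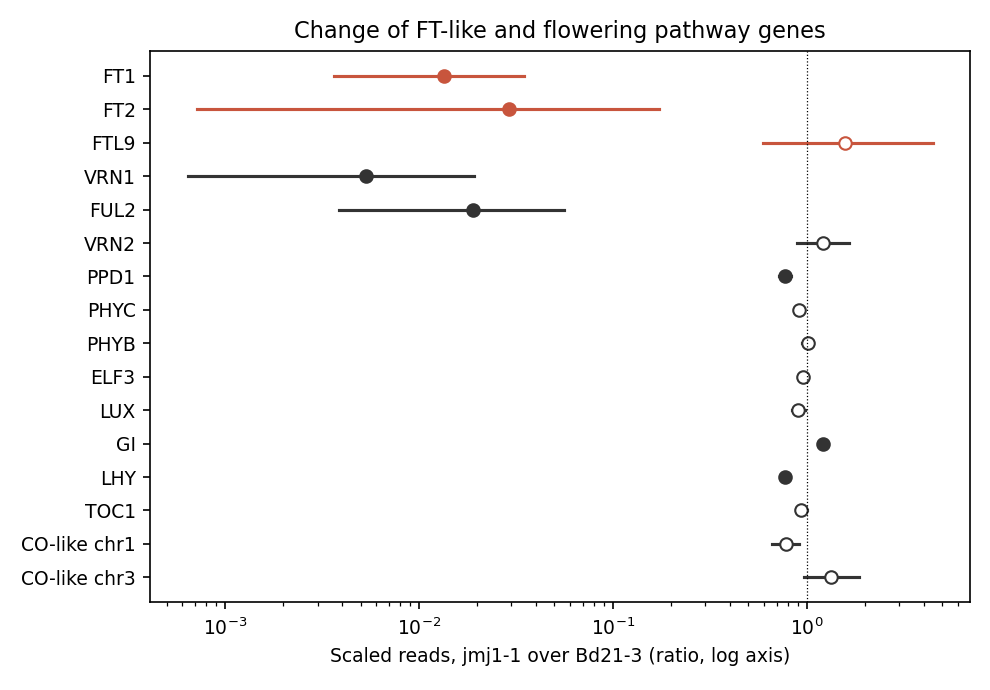
Ratio of summed and scaled reads in jmj1-1 to those in Bd21-3 (horizontal log axis, dotted line at 1) for FT1, FT2 and FTL9 (red) and the flowering pathway list (black), with exact 95% intervals that cover counting error only. Filled points passed edgeR's test over all genes at an adjusted p of 0.05 or less and open points did not: FT1, FT2, VRN1 and FUL2 lie at ratios of 0.0053 to 0.0292, FTL9 lies at 1.58 with a wide interval, and the other genes drawn lie between 0.768 and 1.34 (the list locus with a single read is not drawn).

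Clock and evening-complex genes, which set the daily gate for FT expression, were read at a single hour. GI, the GIGANTEA gene of clock output, rose by a log2 change of 0.27 (SE 0.042, adjusted p = 9.72e-07), and the morning gene LHY fell by 0.38 on the log2 scale (SE 0.038, adjusted p = 4.18e-12). ELF3, a repressor within the evening complex, and its partner LUX had log2 changes of -0.07 and -0.15 and did not pass (adjusted p = 0.47 and 0.22). TOC1, another pseudo-response regulator, had a log2 change of -0.09 and did not pass (adjusted p = 0.39).

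The loci next to FT1 and FT2 gave no call, a count that is near the background. In locus order, the 3 loci on each side of FT1, FT2 and FTL9 were examined, which made 18 neighbours, of which 9 had enough reads to test. Of the 2 tested beside FT1 and the 4 beside FT2, none passed edgeR's quasi-likelihood test (lowest adjusted p = 0.56 and 0.17), with 1 of the 6 at an unadjusted p under 0.05, and 0 were called by DESeq2, limma-voom or edgeR's likelihood ratio test. Over all tested genes 13.9% were called, so few calls would be made among 6 genes in any case. Their log2 changes lay between -0.26 and 0.20, against -6.13 for FT1 and -4.79 for FT2. The locus just before FT1 had 634 and 681 reads in Bd21-3 and 694 and 625 in jmj1-1, and the locus just after FT2 had 953 and 891 against 897 and 745. The untested neighbours of FT1 and FT2 had at most 4 reads in any library, so a change in them was not detectable at this depth.

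Beside FTL9, 2 of 3 tested neighbours passed, in opposite directions and by small factors, beside 13.9% of all tested genes called; with 3 genes this count says little about the region. BRADI_2g49781v3 was at 9.39 and 10.9 CPM in Bd21-3 and 15.8 and 11.4 CPM in jmj1-1, a log2 change of 0.44 (SE 0.14, adjusted p = 0.019). Without jmj1-1 replicate 1 its log2 change was 0.17 (adjusted p = 0.69), and without Bd21-3 replicate 1 it was 0.33 (adjusted p = 0.16), so its call rests on these libraries. It passed in 10 of 14 alternatives, with an adjusted p between 7.68e-04 and 0.69. BRADI_2g49790v3 was at 23.7 and 20.0 CPM in Bd21-3 and 18.1 and 17.7 CPM in jmj1-1, a log2 change of -0.29 (SE 0.10, adjusted p = 0.045). It kept its call in 6 of 14 alternatives, and its log2 change was -0.16 without Bd21-3 replicate 1 (adjusted p = 0.48, the highest of a range that began at 0.0059). It also lost its call without jmj1-1 replicate 1 or 2 (adjusted p = 0.15 and 0.19). The locus just after FTL9 had 388 and 375 reads in Bd21-3 and 396 and 339 in jmj1-1 and did not pass (adjusted p = 0.94).

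**Figure D4:**
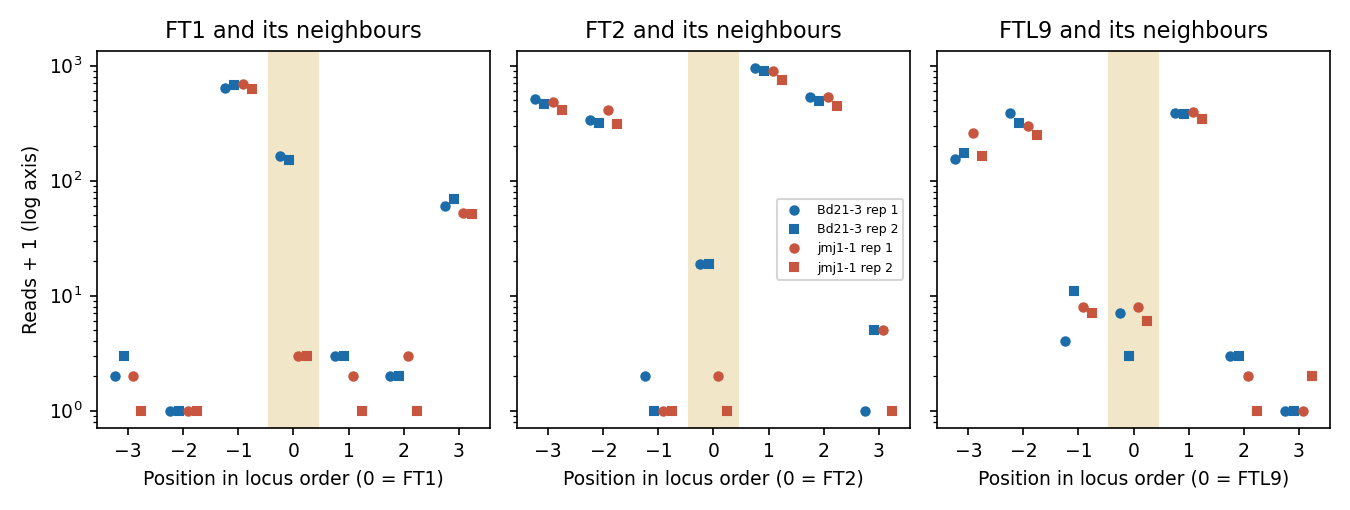
Reads plus 1 (vertical log axis) in the 4 libraries at each of FT1, FT2 and FTL9 (shaded, position 0) and at the 3 loci before and after it in locus order (horizontal axis, a rank and not a distance), with Bd21-3 in blue, jmj1-1 in red, and replicates 1 and 2 as circles and squares. At position 0 the genotypes part for FT1 and FT2, while at the neighbours with many reads the libraries lie within 1.69-fold of each other.

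Genes with the most similar profile to FT1 were ranked by the root mean square difference between log2 CPM profiles over the 4 libraries, each centred on its own mean, with 0.5 reads added. The nearest was FUL2, at 0.38 on the log2 scale. The next, BRADI_3g10520v3, had 54 and 50 reads in Bd21-3 and 0 in both jmj1-1 libraries and lay at 0.39. VRN1 was the fifth, at 0.54. With 2 reads added in place of 0.5 the same 5 genes were nearest to FT1, in another order. For FT2 the nearest 5 lay between 0.52 and 0.60 and included FUL2, but 1 of the 5 was kept with 2 reads added, so the neighbours of FT2 by profile depend on that constant. With 2 genotypes and 4 libraries, this likeness is mostly the size of the difference between genotypes.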

How the data were processed

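The authors deposited 1 table of raw read counts, as whole numbers for each locus. Tools listed in the submitters' processing notes are featureCounts, SAMtools, HISAT2 and cutadapt, with no version, and the kit was a stranded one for mRNA, per the labels. The genome build, the annotation, the strand setting and the handling of reads that fit several loci are stated in none of the sources used here, so reads of FT-like paralogues or of overlapping loci could have been shared or lost, and these values carry that uncertainty. None of the 35125 identifiers was found in RefSeq's gene table for assembly Brachypodium_distachyon_v3.0 (0 matches), so other FT-like genes, sequences and gene lengths are not used here.

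Counts were fitted in R 4.3.3 with edgeR 4.0.16 (TMM, filterByExpr defaults, quasi-likelihood F-test, two-sided, Benjamini-Hochberg adjustment over 21456 genes). FTL9 was fitted without the filter. Standard errors are the absolute log2 change divided by the square root of F. For FT1, FT2, FTL9, VRN1 and FUL2 these were smaller than the standard errors from DESeq2. Ratios of summed reads have exact 95% intervals. A floor of 3 reads stood in for a count of 0 only in the limit given for FT2 in jmj1-1 replicate 2. The CPM values, ratios and fits used the count of 0 itself. The intervals and the floor cover counting error only. Named genes followed a rule: the members, the main pathway genes and called list members, called neighbours, and the nearest profiles, of which at most 2 unnamed identifiers were printed. The fit was also run on counts simulated from its own model for genes that passed the filter. That run checks the code only and does not cover loci that failed the filter, such as FTL9. Alternatives used other scalings, filters, DESeq2 1.42.0, limma-voom (limma 3.58.1), a likelihood ratio test, a replicate block and each library left out; the older quasi-likelihood method was chosen after seeing the data. The members and lists were chosen with earlier results of these data known. Replicates differed by more than sampling noise (chi-square over its degrees of freedom 2.41 for Bd21-3 and 1.85 for jmj1-1).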

Additional observations from a re-analysis of the deposited data

How the results depend on the processing

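FT1 and FT2 were lower in jmj1-1 and passed an adjusted p of 0.05 under the 14 alternatives in which they were tested. FT1 ranged from -6.23 to -5.90 on the log2 scale, with adjusted p from 7.51e-63 to 3.38e-06. FT2 ranged from -7.12 to -4.03, both ends without 1 jmj1-1 library, with adjusted p from 9.56e-08 to 0.029, the highest in DESeq2. FTL9 was fitted under 12 alternatives, kept a positive sign and passed in none (adjusted p from 0.51 to 1.00). With a minimum of 1 CPM it gave no value. In the pathway list 4 genes fell and 1 rose, except that 5 fell without Bd21-3 replicate 1; PHYB turned to -0.0132 there and ranged from -0.0461 to 0.0745 with single libraries left out.

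The count of called genes moved more. It was 1788 without the filter (746 higher, 1042 lower), 1283 in DESeq2 (515 higher, 768 lower), 1954 at an adjusted p of 0.01 (837 higher) and 276 against a fold of 1.5 (196 higher, 80 lower); library totals alone gave 2041 higher. A stricter p and a fold minimum lower the count by construction, and otherwise the cause was not tested. With 1 library fewer there were 1792 to 2856 calls (749 to 1236 higher, 1042 to 1620 lower), and a lone library is taken to vary as the replicated genotype does. With library totals 64.1% of calls were higher, against 44.2% with TMM.

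Same-numbered libraries did not deviate together (correlation -0.018), and no label pairs them. The replicate block gave 3140 calls, with FT1 at -6.14, FT2 at -4.79 and FTL9 at 0.62, and changed none of these calls. At 0 to 18 reads per library, depth limits the size of the fall of FT2 and any change of FTL9.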
